A study of Mus musculus with 6 samples.

Results

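The antiviral effector genes described here are Oas1a, Oas2, Oas3, Oasl1, Oasl2, Ifit1, Ifit2, Ifit3, Isg15 and Bst2, chosen by their symbols, and all 10 were found among the 10539 genes listed in the deposited table. They were measured by RNA sequencing in mouse (C57BL/6) lung alveolar macrophages in which C/EBPβ, a transcription factor of myeloid cells, was overexpressed. Group CEBPb holds 3 libraries of such cells, and group CEBPb-A holds 3 libraries of such cells that also received an adenovirus carrying A20, the ubiquitin-editing protein encoded by Tnfaip3 that restrains NF-κB signalling. Both groups thus carry the C/EBPβ overexpression, and no group without it was analysed here. The sources used here do not say how C/EBPβ was overexpressed or which virus, if any, the CEBPb cells received, so an effect of A20 and one of the virus itself cannot be told apart. The libraries are labelled as replicates with no word on separate mice or cultures. P-values therefore reflect the spread among 6 libraries, which could be a technical one.

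These genes are classic targets of type I interferon. When interferon binds its receptor, the kinases JAK1 and TYK2 activate transcription factors that bind the interferon-stimulated response element (ISRE) in front of their target genes. The Oas enzymes sense double-stranded RNA and make short adenylate chains that switch on RNase L, the Ifit proteins bind foreign RNA ends and block its translation, ISG15 is a ubiquitin-like tag, and BST2 tethers budding virus particles to the cell surface. Alveolar macrophages are the first phagocytes that inhaled viruses meet, and they express such genes at a base level.

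The stretches in front of the genes are shown first because the ISRE is the feature the family is known to share. RefSeq sequence of build GRCm38.p6 was given for 9 of the 10 genes (Oas2 was not among them), and the 250 bases before each start were searched on both strands for the ISRE core GAAANNGAAA. A match was present in 6 of the 9 genes, against 2.98% of all 32851 promoters and 3.33% of the 7600 tested genes that had one. The matches are printed with their flanks on each gene's own strand, 5′ to 3′, with capitals marking every base of a match. In Ifit1 and Ifit3 the matches lie on the opposite strand and read as their reverse complement.
Isg15 (chr4:156200860-156200911, minus strand): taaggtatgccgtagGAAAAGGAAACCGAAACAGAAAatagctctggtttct
Bst2 (chr8:71537572-71537617, minus strand): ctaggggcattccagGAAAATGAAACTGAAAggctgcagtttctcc
Oas1a (chr5:120907526-120907560, minus strand): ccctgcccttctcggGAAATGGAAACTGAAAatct
Oas3 (chr5:120777710-120777749, minus strand): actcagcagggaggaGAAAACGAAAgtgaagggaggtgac
Ifit1 (chr19:34640770-34640828, plus strand): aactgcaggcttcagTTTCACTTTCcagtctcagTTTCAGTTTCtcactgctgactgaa
Ifit3 (chr19:34583358-34583431, plus strand): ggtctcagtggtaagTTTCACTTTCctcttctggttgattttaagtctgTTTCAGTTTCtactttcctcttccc

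Isg15 held 3 overlapping matches in a row between 78 and 57 bases before its start, Bst2 and Oas1a held 2 overlapping ones each, Ifit1 and Ifit3 held 2 separate ones each and Oas3 held 1. No match to these letters lay in the windows of Ifit2, Oasl1 and Oasl2. The C/EBP core TTGCNNAA matched in 0 of the 9 and in 9.56% of all promoters. A match describes the letters only and is not evidence of binding.

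**Figure D1:**
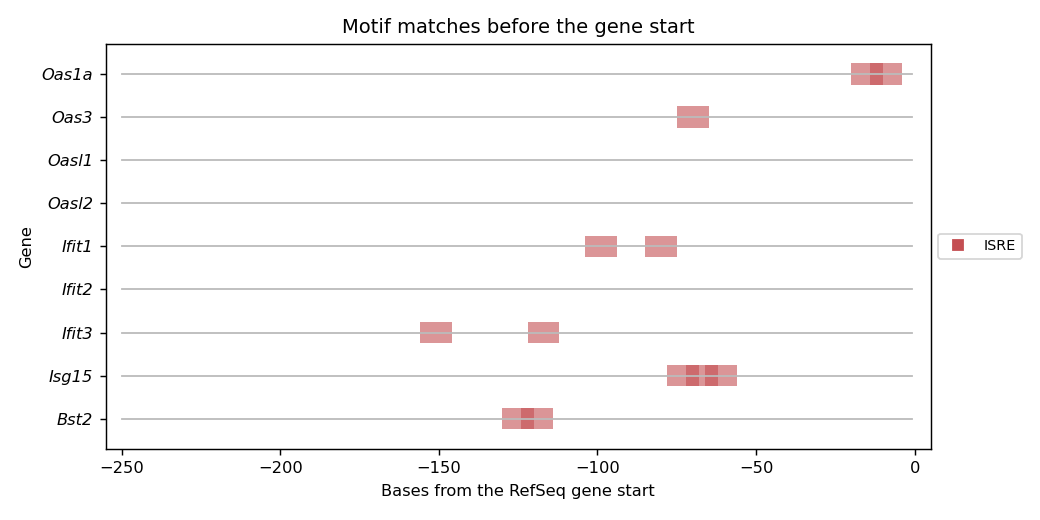
Matches to the ISRE core in the 250 bases before the RefSeq start of 9 genes; the horizontal axis is the distance in bases from the start and each block is 1 match, darker where matches overlap. ISRE matches lie in 6 genes, from 156 to 5 bases before the start.

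The 10 genes spanned a wide range of levels. On the FPKM scale, which divides fragments by gene length and library total so that genes can be compared, means over the 6 libraries ran from 86.0 for Bst2 through 50.9 for Isg15, 44.8 for Oas1a, 25.8 for Ifit3, 17.0 for Ifit1, 15.7 for Oasl1, 15.6 for Ifit2, 10.0046 for Oas3 and 7.81 for Oasl2 to 7.65 for Oas2. These levels lay between the 50.3rd and 95.3rd percentile of the 9617 genes with a mean of at least 1 FPKM, which are the genes tested. The order was the same in all 6 libraries for most neighbours, but not for 3 pairs: Ifit1 exceeded Oasl1 in 4 of 6 libraries, Oasl1 exceeded Ifit2 in 3 and Oasl2 exceeded Oas2 in 3. Among neighbours, the ranges over all libraries were separate only between Oas1a and Ifit3.

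**Figure D2:**
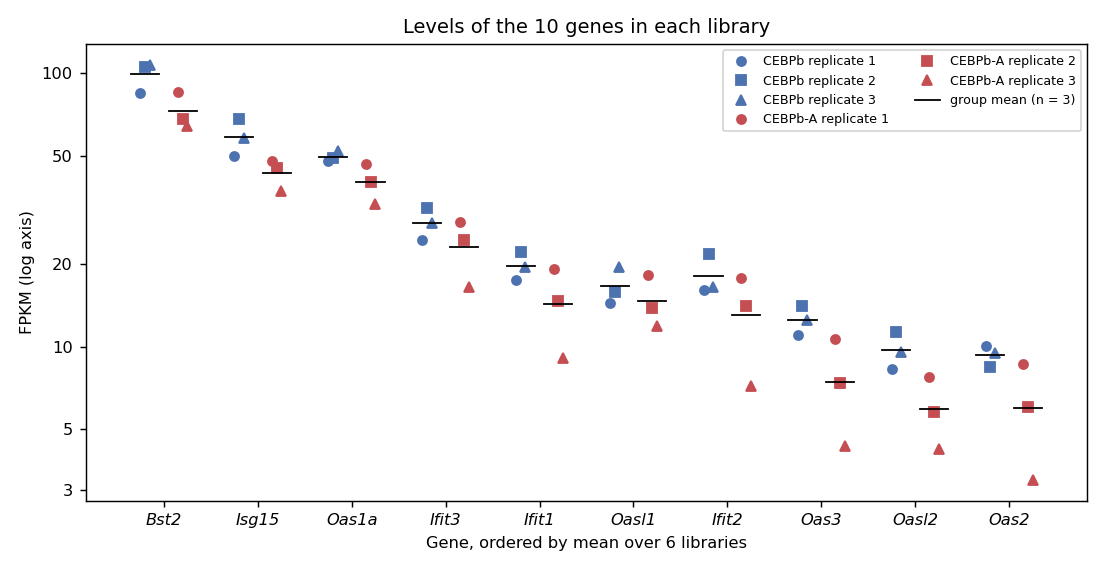
FPKM (log axis) of each gene in each library, with genes ordered by their mean; blue symbols are the 3 CEBPb libraries, red the 3 CEBPb-A libraries, the symbol shape is the replicate number and the black line the group mean. The red triangle, CEBPb-A replicate 3, is the lowest of the 6 libraries for all 10 genes.

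All 10 genes had a lower mean in the libraries labelled CEBPb-A, beside 53.4% of all genes tested, and none passed the test. The log2 fold changes, CEBPb-A minus CEBPb on the log2(FPKM + 1) scale, ran from −0.75 for Oas3 to −0.18 for Oasl1 with a median of −0.47, beside a median of −0.013 over all genes tested. In limma with Benjamini-Hochberg adjustment over all 9617 genes, 0 of the 10 were past the threshold of 0.05 (adjusted p from 0.588 to 0.698), beside 0.0520% of all genes. At an unadjusted p under 0.05 there were 6 of 10, all lower, beside 4.42% of all genes that were lower at that level. The groups did not overlap for 4 of 10 (Oas1a, Oas3, Oasl2 and Isg15), all lower in CEBPb-A, beside 8.86% of all genes.

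The 3 libraries labelled CEBPb-A differed widely among themselves. Relative to the CEBPb mean of each gene, the median of the 10 genes on the log2 scale was −0.093 in CEBPb-A replicate 1, −0.38 in replicate 2 and −0.88 in replicate 3. The same median was −0.17, 0.17 and 0.0061 in CEBPb replicates 1, 2 and 3, so CEBPb-A replicate 1 lay within the CEBPb range. CEBPb-A replicate 3 was the lowest of the 6 libraries for 10 of 10 genes, beside 35.8% of all genes. Replicate 1 stood above replicate 2 and replicate 2 above replicate 3 for 10 of 10, beside 26.0% of all genes. CEBPb-A replicate 2 was below every CEBPb library for all 10 genes too, beside 23.4% of all genes. Replicate 1 was below every CEBPb library for 4, beside 23.5% of all genes, and within the CEBPb range for 6.

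**Figure D3:**
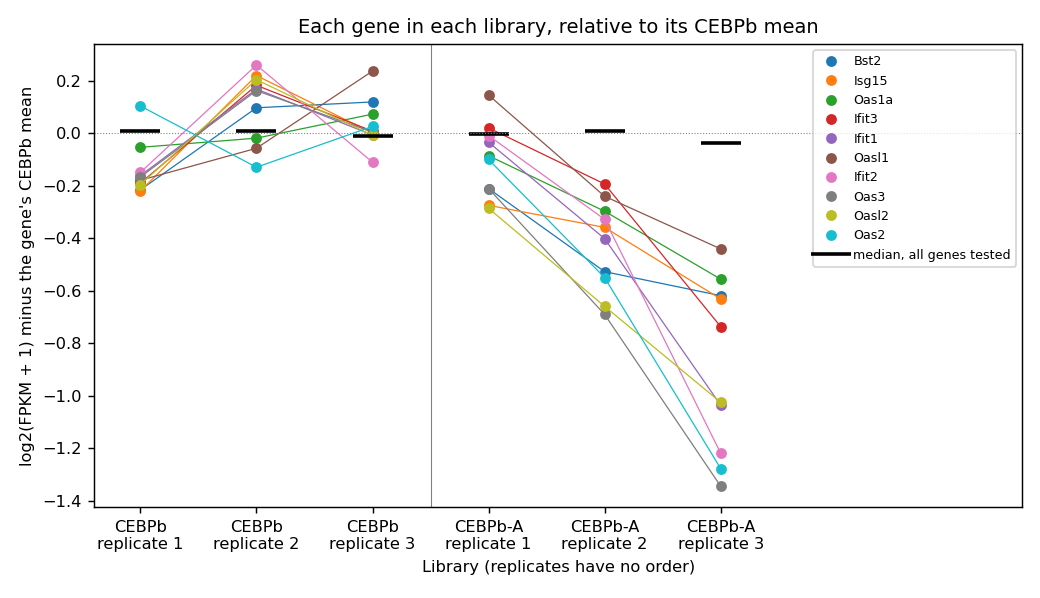
Log2(FPKM + 1) of each gene in each library minus the mean of that gene in the CEBPb group; coloured points are genes, lines only join the values of 1 gene within a group, and black bars are the median of all genes tested. CEBPb-A replicate 3 holds the lowest values, from −1.34 to −0.44, while the median of all genes there is −0.038.

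The result therefore depended on which libraries were used. Without CEBPb-A replicate 3 the median log2 fold change of the 10 genes was −0.27, beside 0.0011 over all genes tested. At an unadjusted p under 0.05 there were then 4, all lower, beside 2.96% of all genes, and 0 were past the threshold. Without CEBPb-A replicate 1 it was −0.65, and the groups then did not overlap for all 10 genes, beside 17.5% of all genes, again with none past the threshold. The lowest adjusted p of any of the 10 genes over 16 alternative settings was 0.349. On the log2 scale the median SD of the 10 genes was 0.38 within CEBPb-A and 0.19 within CEBPb, beside 0.13 and 0.10 for all genes tested.

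Among the synthetases, Oas1a makes the adenylate chains that activate RNase L and was the most abundant. Oas1a stood at 47.6, 48.8 and 52.1 FPKM in CEBPb replicates 1, 2 and 3 and at 46.6, 40.1 and 33.3 in CEBPb-A replicates 1, 2 and 3. The CEBPb libraries lay close together and all above the CEBPb-A libraries, of which the first came within about 1 FPKM of them. The means were 49.5 ± 2.31 and 40.0 ± 6.61 FPKM (SD, n = 3 each; log2 fold change −0.31, SE 0.12, 95% interval −0.59 to −0.036, limma adjusted p = 0.588).

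Oas3, a long synthetase built of repeated units, showed the lowest log2 fold change of the 10. Oas3 stood at 11.0, 14.1 and 12.5 FPKM in CEBPb and at 10.7, 7.37 and 4.32 in CEBPb-A. All CEBPb libraries were above all CEBPb-A libraries, although the gap between the nearest libraries was small. The means were 12.6 ± 1.54 and 7.45 ± 3.18 FPKM (SD, n = 3 each; log2 fold change −0.75, SE 0.26, 95% interval −1.35 to −0.15, limma adjusted p = 0.588). Without CEBPb-A replicate 3 the log2 fold change was −0.45 (SE 0.16, limma adjusted p = 0.894).

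Oas2, the synthetase with a pair of such units, stood at 10.1, 8.42 and 9.49 FPKM in CEBPb and at 8.61, 6.04 and 3.25 in CEBPb-A. CEBPb-A replicate 1 was above CEBPb replicate 2, so the groups overlapped, and the highest CEBPb-A library was 2.65 times the lowest, the widest spread of the 10 genes. The means were 9.33 ± 0.839 and 5.97 ± 2.68 FPKM (SD, n = 3 each; log2 fold change −0.64, SE 0.26, 95% interval −1.26 to −0.029, limma adjusted p = 0.588). It was −0.33 without CEBPb-A replicate 3.

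The Oas-like genes encode proteins that carry ubiquitin-like domains behind the synthetase fold, and their mean differences were of different size. Oasl2 stood at 8.30, 11.3 and 9.58 FPKM in CEBPb and at 7.73, 5.74 and 4.23 in CEBPb-A. The groups did not overlap, and the means were 9.72 ± 1.49 and 5.90 ± 1.76 FPKM (SD, n = 3 each; log2 fold change −0.66, SE 0.19, 95% interval −1.10 to −0.21, limma adjusted p = 0.588, unadjusted p = 0.0094, the smallest of the 10). Oasl1, a protein known to repress translation of Irf7 mRNA, stood at 14.5, 15.8 and 19.6 FPKM in CEBPb and at 18.4, 13.8 and 11.9 in CEBPb-A. There CEBPb-A replicate 1 was above both CEBPb replicates 1 and 2. Its means were 16.6 ± 2.68 and 14.7 ± 3.32 FPKM (SD, n = 3 each; log2 fold change −0.18, SE 0.17, 95% interval −0.57 to 0.21, limma adjusted p = 0.698). The interval of Oasl1 spans 0 and overlaps that of Oasl2, and the difference between the genes was not tested.

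The Ifit genes, which lie side by side on chromosome 19, shared a library pattern. Ifit1 binds RNA that lacks the methyl marks of the cell's own caps. Ifit1 stood at 17.5, 22.2 and 19.6 FPKM in CEBPb and at 19.2, 14.6 and 9.07 in CEBPb-A. Ifit2, an RNA-binding partner also linked to cell death, stood at 16.1, 21.7 and 16.6 in CEBPb and at 17.9, 14.1 and 7.16 in CEBPb-A. Ifit3 stood at 24.6, 32.1 and 28.4 in CEBPb and at 28.6, 24.5 and 16.5 in CEBPb-A. For each of the 3 genes CEBPb-A replicate 1 lay inside the CEBPb range and CEBPb-A replicate 3 far below it.

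The group means were 19.7 ± 2.37 and 14.3 ± 5.05 FPKM for Ifit1 (SD, n = 3 each; log2 fold change −0.49, 95% interval −1.03 to 0.049). They were 18.1 ± 3.11 and 13.05 ± 5.44 for Ifit2 (−0.52, −1.18 to 0.15) and 28.4 ± 3.77 and 23.2 ± 6.15 for Ifit3 (−0.30, −0.75 to 0.14). Every interval included 0, and the limma adjusted p was 0.588, 0.591 and 0.605 for Ifit1, Ifit2 and Ifit3. Without CEBPb-A replicate 3 the log2 fold changes were −0.22, −0.17 and −0.087, each nearer 0.

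Isg15, the ubiquitin-like modifier that is also secreted, stood at 49.7, 67.8 and 58.1 FPKM in CEBPb and at 47.8, 45.0497 and 37.1 in CEBPb-A. The groups did not overlap, and CEBPb replicate 1 lay just above CEBPb-A replicate 1. The means were 58.5 ± 9.04 and 43.3 ± 5.55 FPKM (SD, n = 3 each; log2 fold change −0.42, SE 0.14, 95% interval −0.74 to −0.11, limma adjusted p = 0.588). Bst2, or tetherin, stood at 85.0, 105.8 and 107.5 FPKM in CEBPb and at 85.3, 68.3 and 64.0 in CEBPb-A. CEBPb replicate 1 and CEBPb-A replicate 1 were nearly equal, and that pair alone made the groups overlap. The means were 99.4 ± 12.5 and 72.5 ± 11.2 FPKM (SD, n = 3 each; log2 fold change −0.45, SE 0.13, 95% interval −0.76 to −0.14, limma adjusted p = 0.588). Without CEBPb-A replicate 3 Isg15 was at −0.32 and Bst2 at −0.37, a smaller loss than in the Ifit genes.

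**Figure D4:**
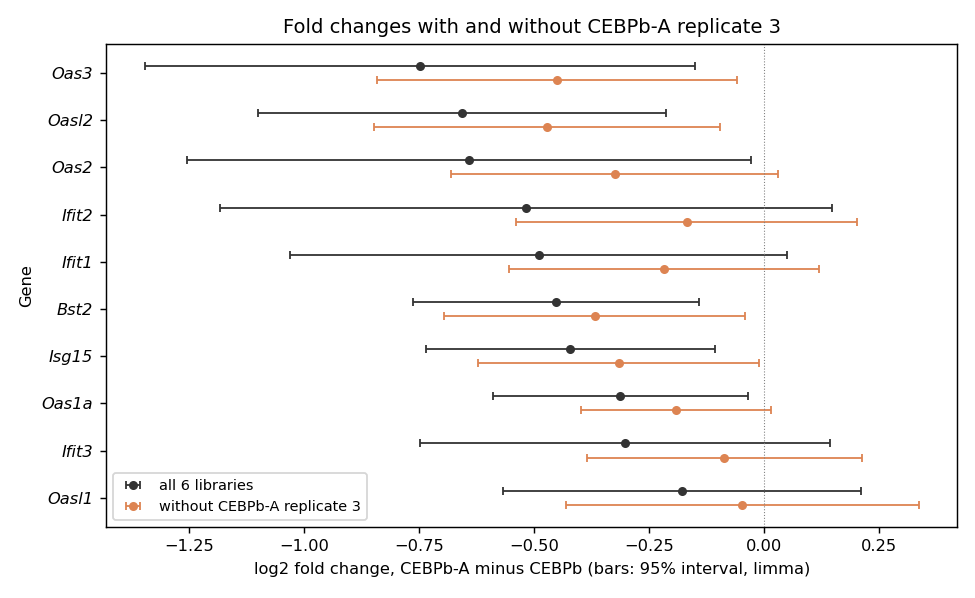
Log2 fold change of each gene, CEBPb-A minus CEBPb, with its 95% interval from limma, for all 6 libraries (black) and without CEBPb-A replicate 3 (orange). All point estimates are below 0 in both, and the orange ones lie nearer 0.

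The genes did not shift by the same amount within a library. In CEBPb-A replicate 3 the difference from the CEBPb mean was −1.34 for Oas3, −1.28 for Oas2 and −1.22 for Ifit2 but −0.62 for Bst2, −0.56 for Oas1a and −0.44 for Oasl1, on the log2 scale. The ratio of Oas3 to Isg15 in FPKM, a pair chosen after the values were seen, was 0.222, 0.208 and 0.216 in CEBPb replicates 1, 2 and 3 and 0.223, 0.164 and 0.116 in CEBPb-A replicates 1, 2 and 3. It was thus alike in CEBPb-A replicate 1 and the CEBPb libraries and lower in the other two.

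Per gene, positions are those of the deposited table (GRCm38), values cover whole genes and not single exons, and each identifier matched GENCODE M21. On chromosome 5 lie Oas1a (ENSMUSG00000052776.10, 120896256 to 120907521), Oas2 (ENSMUSG00000032690.16, 120730333 to 120749853), Oas3 (ENSMUSG00000032661.9, 120753098 to 120777661), Oasl1 (ENSMUSG00000041827.15, 114923240 to 114937915) and Oasl2 (ENSMUSG00000029561.17, 114896936 to 114912234). On chromosome 19 lie Ifit1 (ENSMUSG00000034459.8, 34640871 to 34650009), Ifit2 (ENSMUSG00000045932.12, 34550694 to 34576419) and Ifit3 (ENSMUSG00000074896.3, 34583531 to 34588731). Isg15 (ENSMUSG00000035692.6) lies on chromosome 4 from 156199424 to 156200818 and Bst2 (ENSMUSG00000046718.8) on chromosome 8 from 71534255 to 71537456.

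Near-identical copies make the levels of Oas1a and Ifit3 uncertain. Of the 75-base stretches in the Oas1a transcript, 47.6% also occur in Oas1g, and of those of Ifit3, 41.1% also occur in Ifit3b. For Ifit1 the share with Ifit1bl2 was 5.19%, and for the other 7 genes it was 0. How reads were divided among such copies is not given in the sources used here. Both copies had lower CEBPb-A means as well: Oas1g stood at 8.15 ± 2.01 against 11.2 ± 1.25 FPKM and Ifit3b at 7.47 ± 1.62 against 9.72 ± 0.273 (SD, n = 3 each; log2 fold changes −0.43 and −0.36, limma adjusted p = 0.588 for both). An exon of Oasl1 overlaps Gm13822, an antisense gene, and whether counting used the strand is not given.

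Of 72 other genes of the pathway in 7 lists, 53 were tested. In limma 0 passed in either direction, beside 0.0520% of all genes, and 44 had a lower mean in CEBPb-A, beside 53.4%. At an unadjusted p under 0.05, 16 were lower, beside 4.42% of all genes. At that level 1 was higher, and the share of higher genes over all genes was not computed. The same shares stand beside the counts of each list below. Of 9 interferon ligands and receptor chains, 4 were among the listed genes, all of them receptor chains. Their median log2 fold change was −0.058, and 3 of the 4 had lower means. Ifngr2 stood at 42.1 ± 2.23 against 42.5 ± 1.78 FPKM. Ifnar2, a chain of the type I receptor, stood at 29.8 ± 0.636 against 32.2 ± 3.14. Ifnar1, the other type I chain, picked with its values known, was at 8.61 ± 1.13 against 10.8 ± 0.277 FPKM. Its groups did not overlap, and its log2 fold change was −0.30 (limma adjusted p = 0.588) and −0.20 without CEBPb-A replicate 3. The sign for Ifngr2 turned with median-of-ratios scaling. Jak1, Tyk2, Stat2 and Irf9, the receptor kinases and their factors, all had lower means (median −0.26, 0 of 4 past the threshold), with the kinase Jak1 at 50.5 ± 4.23 against 57.7 ± 1.58 FPKM and the kinase Tyk2 at 15.1 ± 1.44 against 16.7 ± 1.10 (SD, n = 3 each). Without CEBPb-A replicate 3 the median of these 4 was −0.19.

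Downstream of the Oas enzymes, 4 of 5 tested genes of the adenylate pathway and the Oas family had lower means (median −0.055, −0.0091 without CEBPb-A replicate 3), and Abce1, an inhibitor of RNase L, stood at 13.3 ± 2.18 against 13.7 ± 1.78 FPKM. Of 5 genes of the Ifit family and cap methylation all had lower means (median −0.17, −0.081 without that library), with Cmtr1, which adds the cap mark that hides RNA from Ifit1, at 10.4 ± 1.35 against 11.8 ± 1.03 FPKM. All 7 tested genes of ISG15 conjugation and removal had lower means too (median −0.17, −0.090 without that library), with the ligase Trim25 at 23.7 ± 4.03 against 27.9 ± 2.92 FPKM and the conjugating enzyme Ube2l6 at 18.1 ± 2.12 against 20.5 ± 2.72 (SD, n = 3 each). In that list Usp18, which removes ISG15 and restrains the receptor and was named after its values were seen, had the lowest log2 fold change, −0.78 (SE 0.27, limma adjusted p = 0.588; −0.47 without that library). None of these 17 passed.

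Among 23 other antiviral effectors 20 had lower means, beside 53.4% of all genes (median −0.30, −0.18 without CEBPb-A replicate 3), and 0 passed. At an unadjusted p under 0.05, 7 were lower, beside 4.42% of all genes, and 0 were higher. Lgals3bp stood at 175 ± 23.2 against 206 ± 10.9 FPKM, while Ifitm2, a membrane protein that blocks virus entry, stood at 65.6 ± 8.31 against 55.1 ± 6.22, the other way round (SD, n = 3 each; log2 fold change 0.24, limma adjusted p = 0.588). Rsad2, the antiviral enzyme viperin, named after its values were seen, had a log2 fold change of −0.62, and of −0.33 without CEBPb-A replicate 3. Of 6 genes that restrain interferon signalling only 2, Usp18 and Socs1, had lower means (median 0.062), and the phosphatases Ptpn6 and Ptpn1 stood at 85.5 ± 2.27 against 74.3 ± 6.07 and 42.4 ± 0.950 against 40.9 ± 2.37 FPKM, neither past the threshold. Usp18 counts in both lists that hold it.

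**Figure D5:**
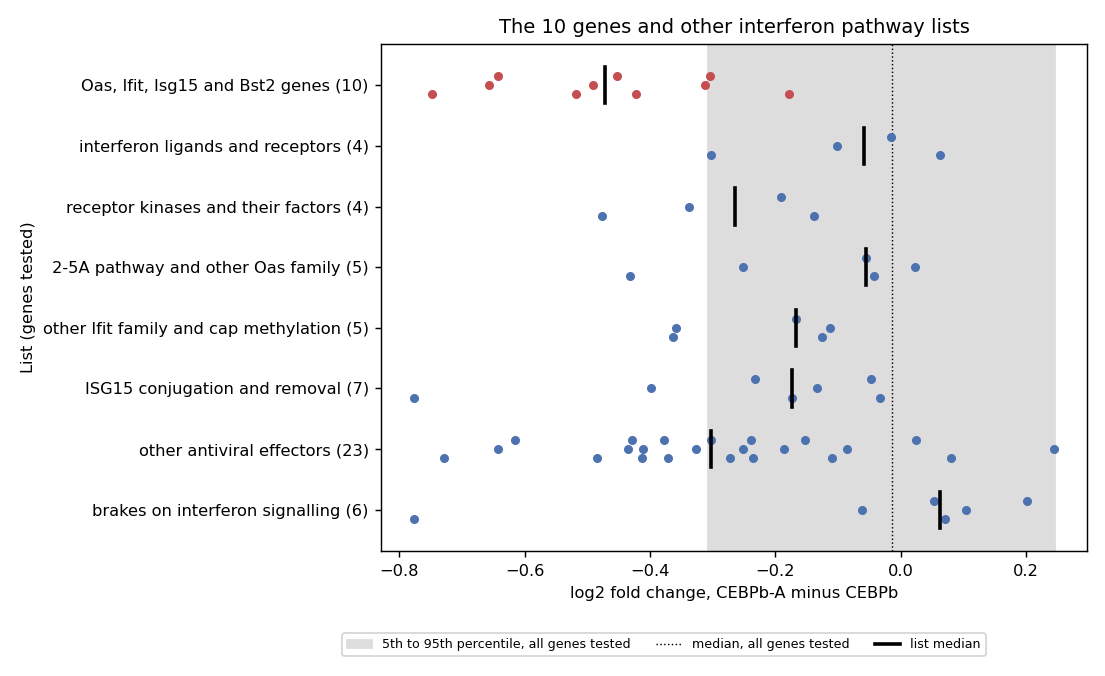
Log2 fold change of each tested gene in the 10-gene set (red) and in 7 other lists of the interferon pathway (blue), with list medians as black bars and the 5th to 95th percentile of all genes tested, −0.31 to 0.25, in grey. The 10 genes have the lowest median, −0.47, and the list of brakes has a median of 0.062.

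The genes whose library pattern was nearest to the median of the 10 were Golgb1, Helz2, Gbp3, Ddx58, Mdc1 and Stat2. Nearness was the root-mean-square difference over the 6 libraries between the deviations of a gene from its own mean and the median deviations of the 10 genes, on the log2 scale. It was 0.068, 0.069, 0.0701, 0.074, 0.075 and 0.076 for these genes, with a median of 0.36 over the 6059 genes compared, and from 0.068 for Ifit1 to 0.21 for Oas2 among the 10 themselves. Golgb1, the nearest, stood at 10.005, 10.6 and 10.3 FPKM in CEBPb and at 9.56, 7.63 and 5.38 in CEBPb-A. Stat2 stood at 16.4, 16.9 and 16.7 FPKM in CEBPb and at 15.8, 12.1 and 8.27 in CEBPb-A, and the RNA sensor gene Ddx58 at 13.4, 14.9 and 13.3 and at 12.5, 10.0087 and 7.41. In these genes CEBPb-A replicate 1 was near the CEBPb libraries and replicate 3 lowest. They were picked for their nearness to the 10 genes, so this likeness was fixed by the choice and is no separate result.

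CEBPb-A replicate 3 also stood apart in other ways. On the first principal component of all genes tested its score was far from those of the others (25.7 against −11.7 to −0.095, 44.3% of the variance). Fold changes were lower for longer transcripts: the median over all genes was 0.034 below 1000 bases and −0.12 from 3000 bases upward, and 0.023 and −0.043 without that library. The 4 of the 10 genes with a median transcript under 1000 bases (Bst2, Isg15, Oasl1 and Oasl2) had a median of −0.44, and with the length trend removed from each library the median of all 10 was −0.46. The summed level of lung epithelial markers, of which 2 of 8 (Scgb1a1 and Krt8) had a value, was 60.9 FPKM there, 26.7 to 29.7 in the other CEBPb-A libraries and 22.7 to 33.8 in CEBPb. The part of these markers in the result was not tested. In bulk RNA, fewer cells of a type and less RNA per cell cannot be told apart.

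The identity markers of alveolar macrophages were present in all libraries (12 of 12 with a value, summed level 7294 to 8147 FPKM in CEBPb and 7752 to 8728 in CEBPb-A). Since Bst2 also marks plasmacytoid dendritic cells, their markers were examined: 3 of 7 had a value, with a sum of 2.22 to 3.05 FPKM in CEBPb and 2.26 to 3.02 in CEBPb-A. The defining Siglech and Ccr9 were not among the listed genes. Neutrophil markers (4 of 8 with a value) summed to 258 to 316 FPKM in CEBPb and 347 to 380 in CEBPb-A, of which S100a8 made most, and their part in the result was not tested. Monocyte markers (2 of 7) summed to at most 1.58 FPKM, and no marker of T, NK and B cells, endothelium or fibroblasts had a value. A marker without a value is not among the 10539 listed genes, which is not a measured level of 0. S100a9, for example, is not listed although S100a8 stood at 199 to 303 FPKM. Whether the cells with unlisted markers were absent was thus not measured. Tnfaip3 itself had no higher level after the labelled A20 virus (10.2 ± 4.53 against 15.2 ± 5.64 FPKM, SD, n = 3 each; log2 fold change −0.53, limma adjusted p = 0.606), so the labelled A20 delivery is not visible at the mouse gene, and every direction here is between libraries as labelled. Cebpb stood at 411 ± 70.5 against 429 ± 66.6 FPKM.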

How the data were processed

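The authors deposited 1 table of FPKM values for 6 libraries (KAPA stranded kit, per the labels' protocols; GRCm38, per the submitters' processing notes). Which aligner, FPKM program and annotation release were used is not given in the sources used here. Depth is unknown. At the best of many scalings, 34.9% to 39.5% of low values of genes with 1 transcript came within 0.1 of a whole read. Evenly spread values would give 20% at 1 fixed scaling and more at the best of many, so the check cannot recover the depth. No counting interval is therefore given.

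Genes whose mean FPKM was 1 or more (9617 of 10539, all 10 genes described among them) were tested on log2(FPKM + 1), a scale that understates the change of low genes, with limma 3.58.1 (R 4.3.3), an intensity trend, no covariate, two-sided p and Benjamini-Hochberg adjustment at 0.05. The procedure was run on simulated data with independent libraries and changes larger than those of the 10 genes. That run therefore does not bear on changes of the size seen here. Promoter sequences are from RefSeq (GRCm38.p6). Transcript lengths, the median per gene, are from GENCODE M21.

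The genes and lists were chosen with earlier results of these data known. Of the pathway lists, 1 gene is not reported here. Besides the 10 genes, the text names the 2 most abundant tested genes per pathway list, the 6 nearest library patterns (mean FPKM of at least 5, no Gm numbers), and Tnfaip3 and Cebpb. Usp18, Rsad2, Irf9, Socs1 and Ifnar1 fall outside that rule and were named after their values were seen. Near-identical copies and cell markers are named as such. Alternatives were pseudocounts of 0.1 and 0.5, no filter or a mean of at least 5, quantile normalization, median-of-ratios scaling, a robust prior, no trend in limma, a replicate block and each library left out. Removal of the length trend was added after seeing the data.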

Additional observations from a re-analysis of the deposited data

How the results depend on the processing

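The 10 genes kept a lower mean in CEBPb-A in all 16 alternatives, and 0 passed in any. Their median log2 fold change lay between −0.49 and −0.45 in the alternatives that kept every library and between −0.65 (without CEBPb-A replicate 1) and −0.27 (without CEBPb-A replicate 3) with 1 library left out. The number with groups that do not overlap was 4 in the main fit, beside 8.86% of all genes. It was 5 after quantile normalization and with the length trend removed, and 4 in the other alternatives that kept every library. With 1 library left out it was 4 to 10 (10 without CEBPb-A replicate 1, beside 17.5% of all genes). Leaving out a library makes separation easier for every gene, and the share over all genes was not computed in the other settings. Over all genes 5 passed, against 0 at a mean FPKM of at least 5, 2 after quantile normalization, 1 with the replicate block, and 1 to 9 with 1 library left out; the cause was not tested.

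Same-numbered libraries deviated together with correlations of 0.099, 0.25 and 0.26, and 6 of 6 libraries correlated best with their own number. These 6 matches are not independent, because the deviations are taken from the mean of each group of 3 and each correlation is used for both its libraries. They are at most a weak hint from the data and not from the design. The replicate block changed no call among the 10 genes. Of the other genes named, Ifngr2 reversed to 0.0053 with median-of-ratios scaling, to 0.047 with the length trend removed and ran from −0.050 to 0.025 with 1 library left out. With 1 library left out, Abce1 ran from −0.15 (without CEBPb replicate 3) to 0.091 (without CEBPb-A replicate 3) and Cebpb from −0.20 (without CEBPb-A replicate 3) to 0.051 (without CEBPb replicate 3). With 3 libraries per group and unknown depth, precision rests on the spread between libraries alone.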
